A study of Mus musculus with 6 samples.

Results

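The genes described here are those of the small GTPases Rab27a and Rab27b, of effectors that bind them, and of a motor linked to them. The effectors are encoded by Mlph (melanophilin), Exph5 (exophilin 5) and the synaptotagmin-like genes Sytl1 to Sytl5, of which Sytl4 encodes granuphilin. The motor gene is Myo5a. Members were the non-control probes whose gene name in the scanner files was 1 of these 10 symbols, which gave 10 of 31829 gene names and 14 of 39429 probes. RNA of isolated pancreatic islets was measured on 6 one-colour Agilent arrays to find genes that depend on the homeodomain transcription factor Nkx6.1 in mature islets.

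The 3 mutant samples came from Nkx6.1fl/-;Pdx1-CreERTM mice, which carry 1 floxed and 1 null allele of Nkx6.1. The 3 control samples came from Nkx6.1fl/+;Pdx1-CreERTM littermates, with 1 floxed and 1 wild-type allele. All mice were males of 6 weeks, all carried the tamoxifen-inducible Cre driven by Pdx1, and all received tamoxifen at 2 mg per 25 g of body weight 4 times between weeks 4 and 6. Both groups had the same mixed background, from a floxed line on FVB/N and C57Bl/6J and a Cre line on Cd1 and C57Bl/6J. Each sample pooled 2 pancreata of 1 genotype. The comparison is therefore loss of the floxed allele in mice with no second Nkx6.1 copy against its loss in mice that keep one, in the cells where the Pdx1-driven Cre acts, and the mutants lacked 1 copy in every cell before tamoxifen.

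Rab27 GTPases sit on the membrane of secretory granules and melanosomes and, when bound to GTP, recruit effector proteins that tether the organelle. The Slp effectors, encoded by the Sytl genes, carry lipid-binding C2 domains and attach granules to the plasma membrane, and granuphilin is the one best known from insulin granules of beta cells. The Slac2 effectors, melanophilin among them, link Rab27a to myosin motors, and mouse coat-colour mutants of Rab27a, Mlph and Myo5a are known as ashen, leaden and dilute.

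The array reads transcripts with 60-base probes. The last 30 bases (31 to 60) of the probes that carried the differences between genotypes are given here from the deposited files, with the polyadenylation hexamer AATAAA in capitals where present.
Sytl4: ctttaatatgcatgtgtgtttcAATAAAgc
second granuphilin probe: ttatcttttcatcttattattgtcttttag
Mlph: ggagtaagaagaattttatgtgtgtctcta
The Sytl4 probe lies on the minus strand at chrX:130470950-130471009 and the second granuphilin probe, which the files name by an Ensembl transcript, at chrX:130481094-130481153, 10085 bases away (both mm9). The Mlph probe lies at chr1:92845282-92845341 (mm9). The hexamer was present in 4 of the 14 member probes (28.6%) and in 12.6% of all 39429 probes. No exon or UTR annotation of that build was used here.

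Values are log2 of the processed signal minus the 75th percentile of the same array, so 0 is the brightness of the spot at that percentile. Differences are mutant minus control, and levels are compared between probes only to describe them as bright or dim. A gene was called where its adjusted p, by limma with Benjamini-Hochberg correction over all 22775 gene names tested, was below 0.05. All 14 member probes were bright enough to be tested. Between 63.9% and 74.4% of probes were well above background on the mutant arrays, against 73.4% to 76.3% on the control arrays, and log2 signals correlated at 0.979 to 0.995 within a genotype and 0.974 to 0.984 between genotypes. The insulin genes Ins1 and Ins2 were bright on every array and not called, with differences of 0.26 and 0.25. Scaled Ins1 values were 7.80, 8.20 and 8.28 on mutant arrays and 8.11, 7.68 and 7.72 on control arrays. The 75th percentile signals ran nearly opposite, at 2407, 1843 and 1622 against 1918, 2480 and 2597. Before scaling Ins1 was thus nearly level over all arrays, with 0 flagged as saturated. Whether probes this bright could report a change was not tested.

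Nkx6-1 itself had values of 4.32, 4.06 and 4.45 on the mutant arrays, against 4.79, 4.85 and 4.64 on the control arrays. Every mutant array was below every control array, but the difference of -0.48 (SE 0.14) was not called (limma adjusted p = 0.131). Which part of the transcript the deletion removes is not given in the sources used here. Whether this probe lies in that part is therefore not known, and what its difference says about recombination was not tested.

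Of the 10 genes, 2 fell in mutant islets, Sytl4 and Mlph, and 0 rose. Among all gene names tested, 2.53% were called, 1.12% lower and 1.41% higher in mutants. The median difference of the 10 genes was 0.0069, against -0.025 over all genes tested. Every mutant array lay below every control array for 3 of the 10 (Sytl1, Sytl4 and Mlph) and above for 1 (Rab27b), and such separation held for 26.3% of all gene names tested, 14% lower and 12.3% higher.

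**Figure D1:**
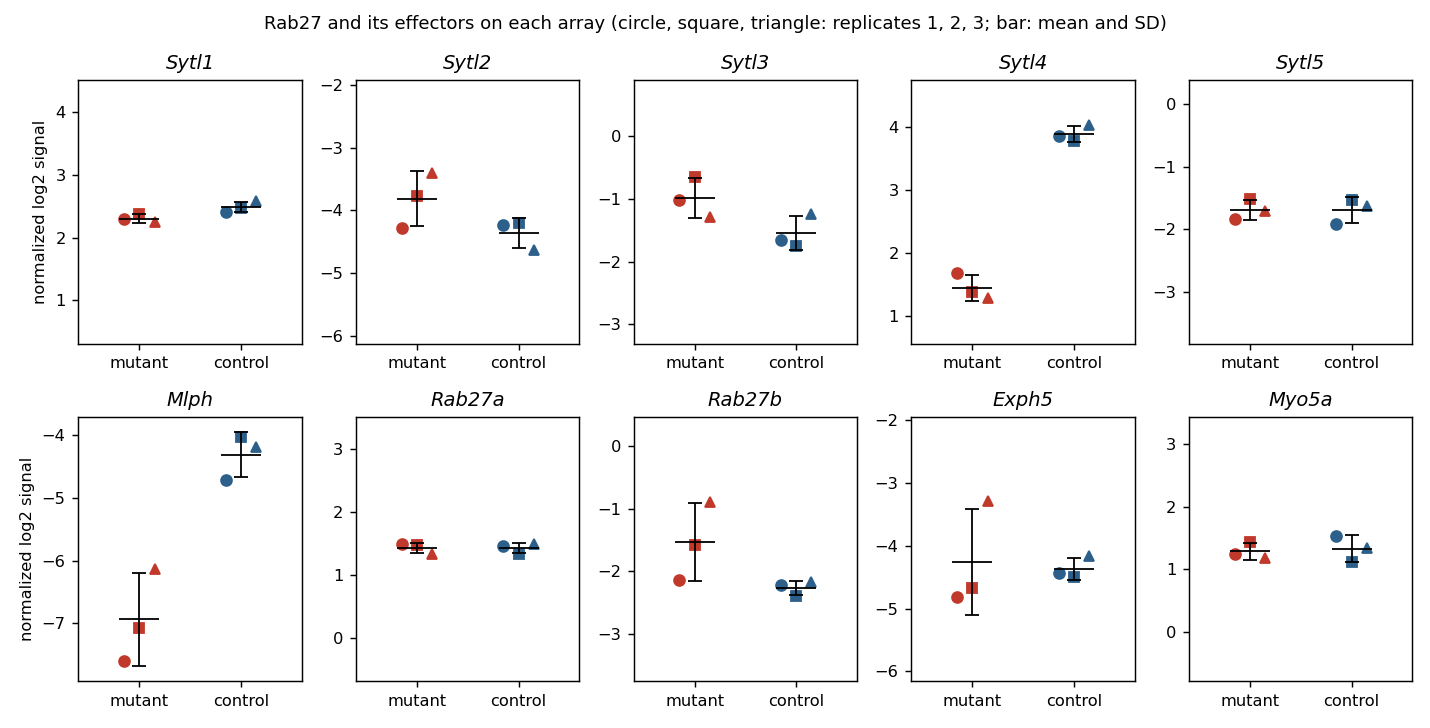
Normalized log2 signal (log2 of processed signal minus the 75th percentile of the array) of the 10 genes, one panel a gene, with mutant arrays left of control arrays; points are single arrays and bars the group mean with its SD (n = 3 each). Sytl4 shows 1.28 to 1.68 on mutant arrays and 3.79 to 4.04 on control arrays, Mlph shows -7.59 to -6.13 on mutant arrays and -4.71 to -4.04 on control arrays, with a narrower gap between the groups, and the other genes overlap or lie close.

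Sytl4, the gene of the granuphilin that docks insulin granules, had processed signals of 7707, 4821 and 3931 on mutant arrays 1 to 3, against 27919, 34202 and 42706 on control arrays 1 to 3. After scaling these became 1.68, 1.39 and 1.28 in mutants and 3.86, 3.79 and 4.04 in controls. The 2 genotypes did not overlap on either scale, and after scaling the highest mutant array lay more than 2 log2 units below the lowest control array. Sytl4 averaged 1.45 ± 0.21 in mutants and 3.90 ± 0.13 in controls (SD, n = 3 each). The difference of -2.45 (SE 0.14) is a 5.46-fold lower signal, with a 95% interval of 0.143 to 0.234 for the ratio of mutant to control and a limma adjusted p of 0.00601. In bulk islet RNA, fewer granuphilin-expressing cells and less transcript per cell cannot be told apart.

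The arrays lay on 2 slides, and both slides held both genotypes. The Sytl4 difference was -2.53 on the slide with mutants 2 and 3 and control 1, and -2.23 on the slide with mutant 1 and controls 2 and 3. With slide as a block, a fit in which 2.94% of gene names were called, the limma adjusted p was 0.0146. A loss of over 2 log2 units was uncommon, since 0.193% of the gene names tested (44) were that much lower in mutants.

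The second granuphilin probe was not part of the choice by gene name, since the files list it under a transcript identifier with granuphilin in its description. Its processed signals were 301, 184 and 161 on the mutant arrays, against 942, 1411 and 1588 on the control arrays. Again no mutant array reached any control array. The normalized difference was -2.37 (SE 0.15, 5.17-fold lower, limma adjusted p = 0.00601), with -2.30 on slide 1 and -2.24 on slide 2. Adjusted over probes, both granuphilin probes had a limma adjusted p of 0.00530, in a fit that called 2.75% of all probes tested. The 2 probes, at different places of the gene, thus differed from each other by less than the SE of either.

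**Figure D2:**
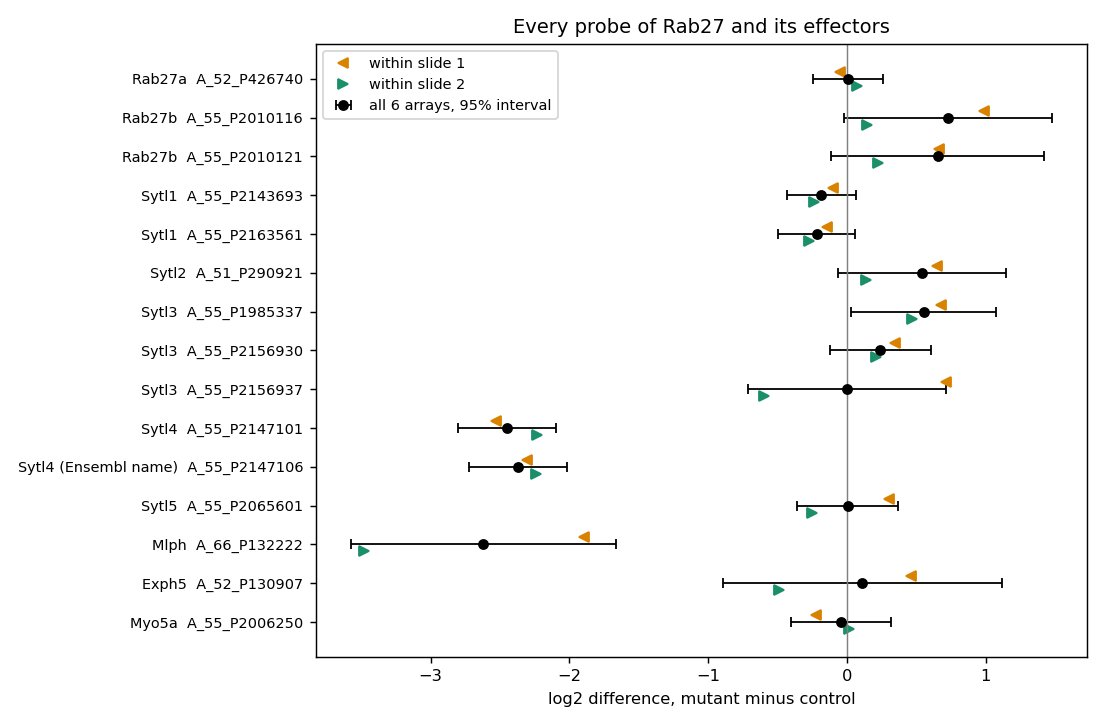
Difference between mutant and control arrays (log2, horizontal axis) for each of the 14 member probes and the second granuphilin probe, as points with 95% intervals from the limma fit over all probes; triangles give the difference within each of the 2 slides. Both granuphilin probes and the Mlph probe lie left of -2, while the probes of the other 8 genes have intervals that hold 0, except the brightest Sytl3 probe, whose interval starts at 0.032.

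Mlph, which ties Rab27a to myosin Va on melanosomes, was dim. Its processed signals were 12.5, 13.7 and 23.1 on the mutant arrays, against 73.2, 151 and 142 on the control arrays. The probe was well above background on 1 of 3 mutant arrays and on all 3 control arrays. After scaling it had values of -7.59, -7.07 and -6.13 in mutants and -4.71, -4.04 and -4.19 in controls, again without overlap. The averages were -6.93 ± 0.74 in mutants and -4.31 ± 0.35 in controls (SD, n = 3 each). The fitted difference was -2.62 (SE 0.39, 95% interval -3.58 to -1.66), nominally 6.15-fold lower, with a limma adjusted p of 0.0370.

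On mutant arrays 1 and 2 the lowest signals that counted as well above background were 40.0 and 34.2, higher than the Mlph signals there. On mutant array 3 that lowest signal was 11.7, and on the control arrays it ran from 14.1 to 16.7. With the mutant values set no lower than these bounds, the mean Mlph signal was 3.07-fold lower in mutants, a value without a sampling error. The call did not hold with slide as a block (limma adjusted p = 0.0599), and the difference was -1.89 on slide 1 and -3.48 on slide 2. The call was also lost when any array other than mutant 3 was left out (limma adjusted p from 0.0579 to 0.154). The difference shrank to -0.84 with normexp background correction (limma adjusted p = 0.0689). That correction here also adds an offset of 50, above every mutant signal of this probe. With normexp and quantile normalization the difference was -0.94 (limma adjusted p = 0.0260). With the deposited equalized values it was -0.98 (limma adjusted p = 0.0348). Mutant arrays 1 and 2 also held the smallest shares of probes above background, 66.8% and 63.9%, and the part of this in the Mlph difference was not tested.

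Among the other Slp genes, none was called. Sytl1, whose protein acts in secretion from exocrine and blood cells, gave processed signals of 11777, 9563 and 7703 on mutant arrays and 10188, 13780 and 15537 on control arrays. Its normalized values were 2.29, 2.38 and 2.25 in mutants, against 2.41, 2.47 and 2.58 in controls. The groups did not overlap, yet the difference was -0.18 (SE 0.10, limma adjusted p = 0.371), a fold of 0.881 with a 95% interval of 0.742 to 1.05. The second Sytl1 probe gave -0.22 and also no overlap.

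Sytl2, known in mouse alpha cells for its part in glucagon secretion, had normalized values of -4.27, -3.76 and -3.41 in mutants and -4.24, -4.20 and -4.63 in controls. The difference of 0.54 (SE 0.25, limma adjusted p = 0.295) came with overlapping groups. It was 0.65 on slide 1 and 0.14 on slide 2, and ranged from 0.34 without mutant 3 to 0.77 without mutant 1. The 6 alpha cell markers, Gcg among them, had 0 called genes. Their mean levels, relative to the control mean, were 0.31, 0.57 and 0.59 on the mutant arrays and 0.30, 0.016 and -0.31 on the control arrays, and their part in the Sytl2 difference was not tested.

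Sytl3, studied in cytotoxic T cells, was read by 3 probes. The brightest gave -1.02, -0.66 and -1.29 in mutants and -1.65, -1.75 and -1.23 in controls, with a difference of 0.55 (SE 0.22, limma adjusted p = 0.227). The other probes differed by 0.24 and 0.0013, and their groups overlapped as well. The probe with the smallest difference shares an accession with a predicted Sytl3-like gene in the files, Gm2833, so signal from both copies could enter it. The probe named Gm2833 was itself too dim to be tested. Its processed signals were 9.34, 8.55 and 3.05 on mutant arrays and 4.02, 16.5 and 10.6 on control arrays. Leukocyte markers were testable for 8 of 9 genes, Gzmb being the exception, and 0 were called. Their median difference was -0.33. Relative to the control mean, their mean levels were 0.075, -0.29 and -0.25 on the mutant arrays and 0.27, -0.12 and -0.15 on the control arrays. The part of these markers in the Sytl3 difference was not tested.

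Sytl5 was level between the genotypes, with values of -1.83, -1.52 and -1.71 in mutants and -1.92, -1.53 and -1.63 in controls. Its difference was 0.0069 (SE 0.15), which leaves a 95% interval of 0.780 to 1.29 for the fold. On the 2 slides the difference took opposite signs, 0.31 and -0.25.

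Of the GTPases themselves, neither was called. Rab27a, the form that recruits granuphilin to insulin granules, had processed signals of 6744, 5119 and 4103 on mutant arrays and 5259, 6242 and 7301 on control arrays. Scaled, these were 1.49, 1.47 and 1.34 in mutants and 1.45, 1.33 and 1.49 in controls. The difference of 0.0069 (SE 0.10, limma adjusted p = 0.976) has a 95% interval of 0.843 to 1.20 for the fold, so a change of the size seen for Sytl4 lies far outside it.

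Rab27b, the paralogue with overlapping function in secretion, had values of -2.14, -1.58 and -0.89 in mutants and -2.22, -2.40 and -2.18 in controls. Every mutant array was above every control array, with mutant 3 the highest. The difference of 0.73 (SE 0.31, 95% interval -0.03 to 1.49) was not called (limma adjusted p = 0.264). Its second probe gave 0.65 with overlapping groups. The difference was 0.99 on slide 1 and 0.15 on slide 2, 0.41 without mutant 3, 1.03 without mutant 1 and 1.37 without mutants 1 and 2 (limma adjusted p = 0.0845).

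Rab27b is also a gene of exocrine secretory cells, and exocrine RNA varied between the samples. The mean of 14 acinar markers, relative to the control mean, was -0.75, 0.88 and 1.56 on mutant arrays 1 to 3, against -0.23, -0.057 and 0.28 on control arrays 1 to 3. Over the mutant arrays the order of this mean was that of Rab27b, and over the control arrays it was not. Its part in the Rab27b difference was not tested further than a fit with this mean as a covariate, chosen after seeing the data. In that fit the Rab27b difference was 0.45 and again not called (limma adjusted p = 0.238). That of Sytl4 was -2.36 (limma adjusted p = 0.0187) and that of Mlph -2.95 (limma adjusted p = 0.0346).

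Exph5, a Rab27 effector known from epidermis, and Myo5a, the actin motor that moves melanosomes and insulin granules, complete the set. Exph5 had values of -4.82, -4.67 and -3.28 in mutants and -4.43, -4.50 and -4.16 in controls, so that mutant 3 alone lay above the controls. Its difference was 0.11 (SE 0.41, limma adjusted p = 0.901) with all arrays and -0.38 without mutant 3. Myo5a had values of 1.24, 1.44 and 1.19 in mutants and 1.54, 1.11 and 1.34 in controls. The Myo5a difference was -0.041 (SE 0.15, limma adjusted p = 0.897), with a 95% interval of 0.758 to 1.25 for the fold.

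**Figure D3:**
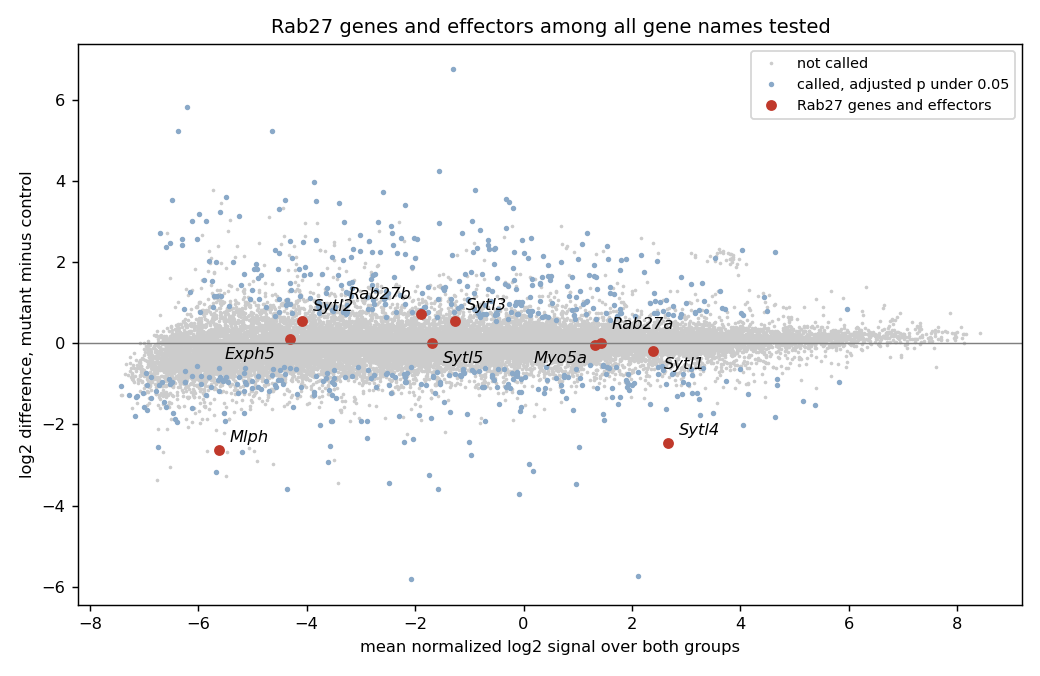
Difference between mutants and controls (log2) against mean normalized log2 signal for every gene name tested, with called genes coloured and the 10 members labelled. Sytl4 is a bright gene at the lower edge of the cloud and Mlph a dim one, and the remaining members lie within the bulk of genes.

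Further genes around Rab27 came in 2 lists, both chosen with earlier results of these data known. The 16 regulators and other effectors, such as the exchange factor Madd, the escort protein Chm and the Slac2 gene Myrip, were all tested and 0 were called, with a median difference of -0.022. The widest differences were those of Rph3a, a Rab3 and Rab27 effector of synapses (-0.61, limma adjusted p = 0.289), and of the motor gene Myo5c (0.50, adjusted p = 0.723), each well above background on 1 of 3 mutant arrays. In this list 2 of the 16 genes had every mutant array above every control array and 2 had every one below. Over all gene names tested such separation held for 12.3% higher and 14% lower, so these counts do not set the list apart.

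Of the 20 genes for Rab3 GTPases, SNAREs and docking partners, all tested, 2 rose and 0 fell, with a median difference of -0.070. Over all gene names tested, 1.41% were called higher and 1.12% lower in mutants, with a median difference of -0.025. Cadps2, which primes dense-core granules for release, had values of -0.50, -0.45 and -0.53 in mutants and -1.39, -1.51 and -1.79 in controls, a difference of 1.08 (SE 0.13, limma adjusted p = 0.0242). Rab3b, a GTPase of the related Rab3 group, had 3.07, 3.37 and 3.38 in mutants and 2.63, 2.53 and 2.49 in controls, a difference of 0.72 (SE 0.13, adjusted p = 0.0478). Neither gene had overlapping groups, a separation that held for 26.3% of all gene names tested. Both kept the call with slide as a block (limma adjusted p = 0.0347 for Cadps2 and 0.0389 for Rab3b). Both lost it with the acinar mean as a covariate, a fit that called 134 gene names against 576 without it. The differences there were 1.10 for Cadps2 (limma adjusted p = 0.0614) and 0.65 for Rab3b (limma adjusted p = 0.0901).

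**Figure D4:**
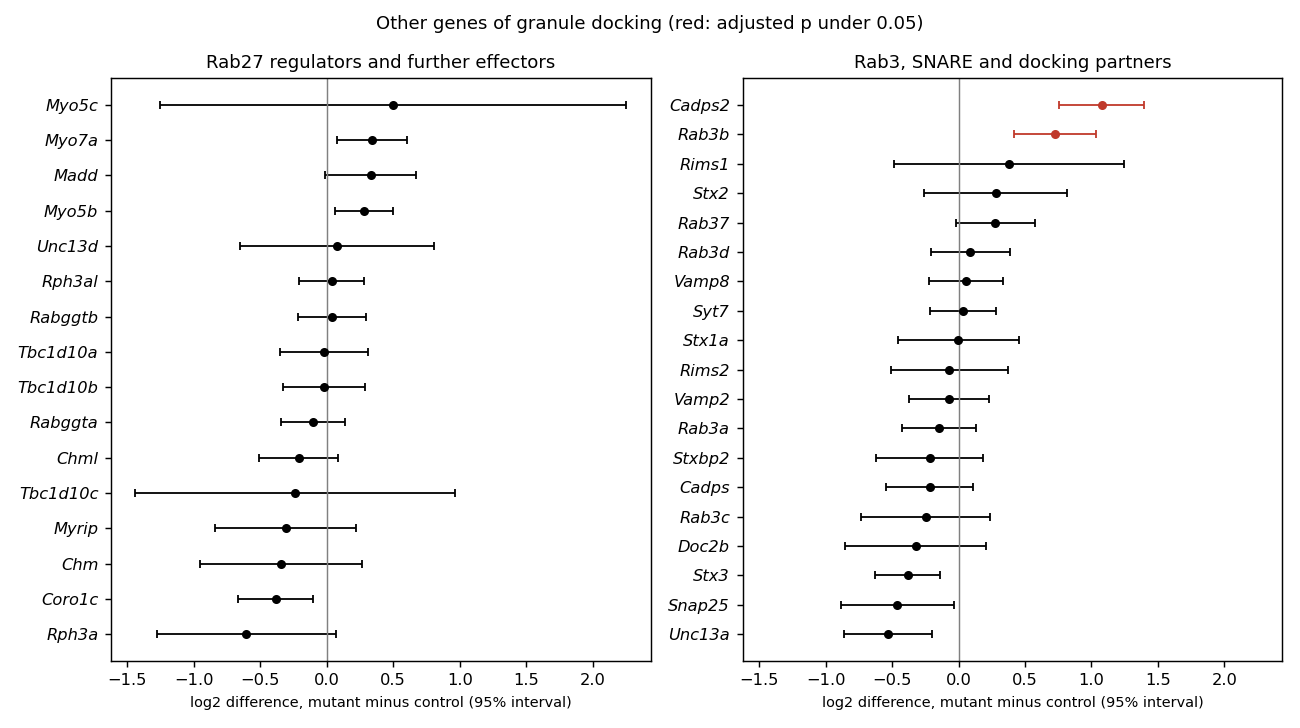
Difference between mutants and controls (log2, with 95% intervals) for the 16 Rab27 regulators and further effectors and for genes of the Rab3, SNARE and docking list (all but 1 of the 20), called genes in red. Cadps2 at 1.08 and Rab3b at 0.72 are the called genes, and the list medians are -0.022 and -0.070.

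The gene names whose pattern over the 6 arrays was nearest to that of Sytl4, by Euclidean distance of values centred on the control mean, began with the second granuphilin probe (distance 0.257). Next came Fam166a (0.580), a gene the files describe as similar to MafA (LOC100045940, 0.616), the heparanase gene Hpse (0.634) and the proteoglycan gene Spock1 (0.891). Their differences ran from -2.75 for LOC100045940 to -2.32 for Hpse. This likeness is a description over 6 arrays, with no test.

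Markers of beta cells and of pigment cells moved as follows. Of 8 beta cell markers, 2 fell, the glucose transporter gene Slc2a2 (-2.01) and Ucn3 (-1.24), and 0 rose. The other beta cell markers were not called. Ins1, Ins2 and the amylin gene Iapp differed by 0.26, 0.25 and 0.26, but whether probes this bright could report a change was not tested. Mafa, G6pc2 and Pdx1 differed by -0.77 (limma adjusted p = 0.0594), -0.81 and -0.39. LOC100045940, described as similar to MafA, was called at -2.75 (limma adjusted p = 0.0125). Mean relative levels of the 8 beta cell markers were -0.54, -0.57 and -0.56 in mutants and 0.12, -0.050 and -0.069 in controls. The part of this in the Sytl4 difference was not tested. Mlph is best known from pigment cells, and of 7 melanocyte markers 6 were tested, Tyrp1 not being bright enough. Dct, an enzyme gene of pigment synthesis, had values of 3.00, 3.69 and 3.74 in mutants and 1.35, 1.47 and 1.54 in controls, and rose by 2.02 (SE 0.22, limma adjusted p = 0.0189), while Mlph fell. Pmel, a structural protein gene of melanosomes that the array lists as Si, had -3.54, -4.04 and -4.34 in mutants and -5.16, -5.14 and -5.11 in controls. Its difference of 1.16 was not called (limma adjusted p = 0.0523) but was with slide as a block (adjusted p = 0.0422). The other 4 tested markers, Mitf, Tyr, Mlana and Sox10, differed by 0.20, -0.052, -0.013 and -0.0084 and were not called. The part of these markers in the Mlph difference was not tested.

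The promoter of Sytl4 is shown because Nkx6.1 is a homeodomain protein, a class that binds TAAT cores, and Sytl4 had the smallest p of the 10 genes. RefSeq (GRCm38.p6) gives these 241 bases upstream of the annotated start, chrX:133981822-133982062 on the minus strand, in which no searched motif occurs and hence no capitals.
Sytl4 promoter: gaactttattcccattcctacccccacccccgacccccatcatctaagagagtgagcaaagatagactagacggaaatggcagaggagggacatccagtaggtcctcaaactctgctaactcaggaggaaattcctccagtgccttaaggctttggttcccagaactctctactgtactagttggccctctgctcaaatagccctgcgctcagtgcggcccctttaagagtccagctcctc
Promoter windows of 300 bases (250 before to 50 after the start) were listed for 8 of the 10 genes, in 9 windows, and searched on both strands for TAAT, for TAATTA, which contains it, and for the E-box CACGTG. The first motif, TAAT, occurred in the windows of Exph5, Sytl3 and Sytl5 and in 1 of 2 of Rab27a, and TAATTA in 0 of the 9. Over all 32851 windows, 58.0% held TAAT, 5.29% TAATTA and 7.15% CACGTG. The E-box occurred once in the Mlph window and once in a Rab27a window. These matches describe letters in a window and say nothing about binding.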

How the data were processed

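RNA from 3 mutant and 3 control islet samples (150 ng each, Cy3) was read on single-colour arrays. Per the file headers and the submitters' processing notes, Agilent Feature Extraction 10.7.3.1 made the deposited intensity values, the background-corrected processed signal; the same deposited files hold 0 or 1 flags for other quality measures, such as well above background. How the authors made the deposited equalized intensity table is not given in the sources used here.

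From these, log2 of the processed signal minus each array's 75th percentile (non-control spots) was fitted with limma 3.58.1 in R 4.3.3 (two-sided, no covariate). A probe was tested if well above background on all 3 arrays of at least 1 genotype, and the brightest tested probe stood for its gene name. The fit was tested on simulated data. Nothing in the labels shows whether animals were shared between pools, so p-values measure the spread between these samples, and 3 arrays a group limit the precision.

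Named were all 10 members with their probes, Nkx6-1, the called genes of each pathway list (or the 2 with the largest difference) and the 5 gene names most like Sytl4. Members and lists were chosen with earlier results of these data known. Alternatives covered background correction, scaling, the dim-probe filter, outlier-flagged spots, slide and replicate blocks, variance estimation, the adjusted p threshold, probe averaging and leaving out arrays; 3 more (without mutant arrays 1 and 2, an acinar covariate, quantile normalization with slide) were chosen after seeing the data. The result of 1 gene of the docking list is not reported here.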

Additional observations from a re-analysis of the deposited data

How the results depend on the processing

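Sytl4 kept its direction under all 21 alternatives and its call in 19, including each array left out (differences from -2.56 to -2.36). It was not called with the replicate block (adjusted p = 0.1005) or without mutant arrays 1 and 2 (-2.62, adjusted p = 0.0631), which leaves 1 mutant array assumed to vary like the controls. The second granuphilin probe was called in 18 of 21, from -2.48 to -2.03, and was lost in these 2 and without control 2. Mlph kept its direction in all 20 alternatives that tested it, with a call in 10, and the filter for all 6 arrays removed it. The count of members lower was 1 with normexp, with no dim filter, with the all-array filter and with slide as a block, 0 with the replicate block and without mutants 1 and 2, and 1 to 2 with each array left out. Of all gene names, 576 were called, against 0 with the replicate block, 0 without mutants 1 and 2, 134 with the acinar covariate and 13 to 396 with each array left out (13 without control 2, 17 without control 3, 35 without mutant 2, 176 without mutant 3, 308 without mutant 1). The Rab3, SNARE and docking list, with 2 called genes, had 3 with slide as a block, with or without quantile normalization, 1 with median scaling and with no dim filter, 0 with the replicate block, without mutants 1 and 2 and with the acinar covariate, and 0 to 1 with each array left out. Small differences changed sign: Sytl5 was -0.00068 without outlier-flagged spots, -0.017 without mutants 1 and 2, -0.047 with the acinar covariate and -0.11 to 0.089 with each array left out. Rab27a was -0.0085 after quantile normalization, -0.00068 without outlier-flagged spots, -0.087 without mutants 1 and 2 and -0.040 to 0.054 with each array left out. Exph5 was -0.014 with slide as a block, -0.020 with quantile normalization and slide, -0.21 with the acinar covariate, 1.08 without mutants 1 and 2 and -0.38 to 0.39 with each array left out, and Myo5a ranged from -0.15 to 0.063. Same-numbered samples deviated with correlations of -0.23, -0.19 and -0.031. Each mutant lay on the other slide from the control of its number, so these values cannot show whether the numbers pair samples. The replicate block left 0 calls in limma. Its unadjusted limma p fell under 0.05 for 3163 of the 22775 gene names, a count not corrected for the number tested. The cause of these changes was not tested. The dimmest member, Mlph, has only a bound on mutant arrays 1 and 2.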
